A study of Mus musculus with 77 samples.

Results

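The 18 pools of cells expressing wild-type (WT) Ngn3 for 2 days were ordered by how much Neurog3 each one contained, and the upper 3 and lower 3 pools of each culture were compared for the genes that followed the Ngn3 dose. They are 18 of the 77 samples of the series. Each pool held 50 GFP-positive cells, sorted from ductal organoids (three-dimensional cultures of pancreatic duct cells) of C57BL/6 mice at passage 2 and sequenced as 1 library. The cells carried a Tet-on lentiviral pair, in which a separate transactivator drives GFP linked through a 2A peptide to HA-tagged murine Ngn3. The groups set beside them were 18 pools with the same vector carrying GFP only and 18 pools expressing 6S-A Ngn3, in which all serine-proline serines are changed to alanine, again for 2 days and at passage 2. Each group came from 3 biological replicates with 6 technical repeats each, from adult mice whose exact age is not given. Because the 6 pools of a replicate came from 1 culture, p-values measure the spread between pools of these 3 cultures. The sorting gate was GFP and the virus was delivered from outside, so a pool's Neurog3 level can differ through the number of expressing cells or through the RNA per cell, and these cannot be told apart.

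Ngn3 is a basic helix-loop-helix transcription factor that binds E-boxes (CANNTG) together with E proteins, and it is required for the endocrine lineage of the pancreas. It is normally switched on for a short time in progenitors of the ductal epithelium, where it turns on a cascade of further transcription factors, among them Neurod1, Insm1, Rfx6, Pax4 and Nkx2-2. Ngn3-expressing progenitors leave the cell cycle as they differentiate.

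The promoters of 3 genes are shown because Hes6 is the cascade gene with the highest correlation with Neurog3, Neurod1 is a classical target with a correlation near 0, and Ankrd1 is the gene that passed the test. Each line gives the 250 bases before the RefSeq start (GRCm38.p6), 5′ to 3′ on the gene's strand, with CANNTG in capitals. Hes6 lies on the minus strand at chr1:91414039-91414288, Neurod1 on the minus strand at chr2:79456637-79456886 and Ankrd1 on the minus strand at chr19:36119845-36120094.
Hes6: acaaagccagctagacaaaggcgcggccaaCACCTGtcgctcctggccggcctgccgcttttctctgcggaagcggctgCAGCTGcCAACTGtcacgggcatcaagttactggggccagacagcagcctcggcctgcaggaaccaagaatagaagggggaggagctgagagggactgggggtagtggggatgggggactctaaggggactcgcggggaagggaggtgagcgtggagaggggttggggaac
Neurod1: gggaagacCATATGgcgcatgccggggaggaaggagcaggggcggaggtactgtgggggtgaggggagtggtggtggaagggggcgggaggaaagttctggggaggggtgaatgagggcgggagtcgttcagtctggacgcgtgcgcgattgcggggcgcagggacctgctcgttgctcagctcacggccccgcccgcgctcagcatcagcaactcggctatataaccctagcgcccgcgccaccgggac
Ankrd1: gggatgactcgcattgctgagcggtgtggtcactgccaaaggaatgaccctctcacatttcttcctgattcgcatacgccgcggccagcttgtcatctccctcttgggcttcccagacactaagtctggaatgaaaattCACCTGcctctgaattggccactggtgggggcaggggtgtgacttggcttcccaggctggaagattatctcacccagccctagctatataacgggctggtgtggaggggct
CANNTG occurs 3 times in the Hes6 window, 1 time in that of Neurod1 and 1 time in that of Ankrd1. It is its own reverse complement as a pattern, so both strands are covered, and 66.1% of the 27025 promoters of this length hold at least 1 copy. CAGATG or its reverse complement CATCTG, an E-box form that overlaps CANNTG, is in none of the 3 windows and in 14.5% of all. A match is only a run of letters, and nothing about binding was measured here.

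Neurog3 chose the groups and its values are a description, with no test. Neurog3 (ENSMUSG00000044312, GRCm38 chr10:62133090-62134763, plus strand) was read as counts per 1000000 gene reads (CPM) in every pool. In replicate 1 the upper pools held 402, 320 and 175 CPM and the lower pools 158, 112 and 105 CPM. In replicate 2 they held 132, 107 and 92.1 CPM against 88.9, 74.9 and 70.1 CPM. In replicate 3 they held 189, 145 and 90.2 CPM against 87.9, 77.9 and 31.4 CPM. The mean was 184 ± 108 CPM in the upper pools and 89.6 ± 34.5 CPM in the lower pools (SD, n = 9 each), a ratio of 2.05, and within replicates 1, 2 and 3 the ratio was 2.39, 1.42 and 2.15.

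The cultures also differed from each other, with a median of 166 CPM in replicate 1 against 90.5 and 89.0 CPM in replicates 2 and 3, so the lowest pool of replicate 1 held more than the median pool of replicates 2 and 3. Between the highest and the lowest of the 18 pools the ratio was 12.8. At the boundary the lowest upper pool and the highest lower pool lay close, at 175 and 158 CPM, at 92.1 and 88.9 CPM and at 90.2 and 87.9 CPM in the 3 replicates, and their exact 95% Poisson intervals overlapped in all 3. These intervals cover counting error only, because the libraries carry no molecular identifiers and several reads can come from 1 molecule. WT pools held 70 to 1632 Neurog3 reads each, whereas the 18 GFP-only pools held 4 reads in all, with 14 pools at 0. Reads from the virus and from the endogenous gene were not separated, and an exon of Fam241b overlaps Neurog3 on the opposite strand.

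**Figure D1:**
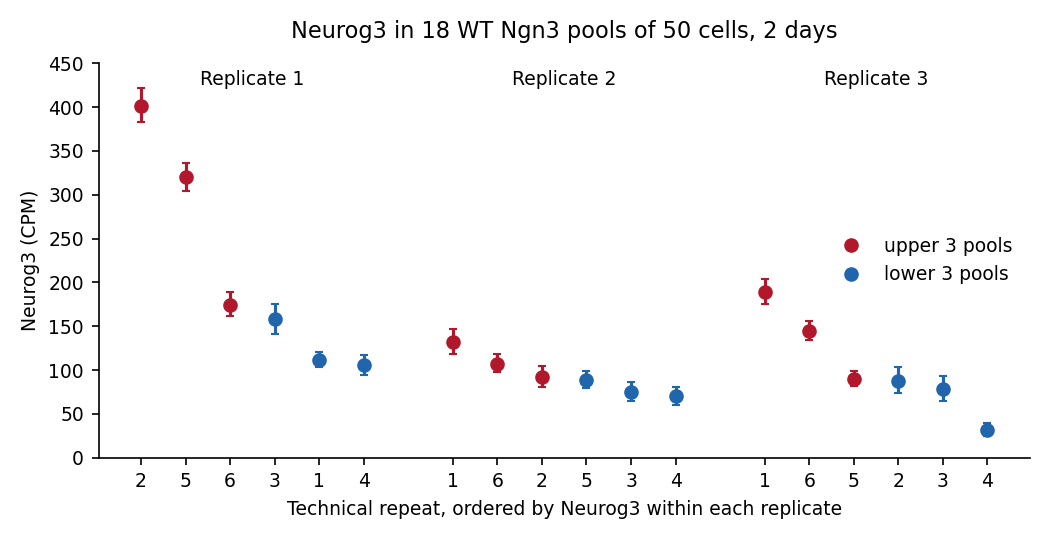
Neurog3 in CPM (vertical axis) in each of the 18 WT Ngn3 pools, ordered within each of the 3 replicates and labelled by technical repeat, with exact 95% Poisson intervals; red marks the upper 3 and blue the lower 3 pools. The range runs from 31.4 to 402 CPM, replicate 2 has the narrowest spread, and the lowest upper and highest lower pool of each replicate lie close together.

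The libraries of the upper and lower pools were not alike in other respects. WT pools had 1.501 to 5.28 M gene reads (M, 1000000) and 16440 to 18787 detected genes. The upper pools had a median of 3.999 M gene reads against 2.47 M in the lower pools, a mean difference of 1.099 M (exact permutation test within replicates, two-sided, Benjamini-Hochberg adjusted over 5 measures, adjusted p = 0.0431). Gene reads are the denominator of CPM, so depth and its p-value are not independent of the ranking. By the same exact permutation test, the share of spike-in reads differed by -0.0664 percentage points between upper and lower pools (adjusted p = 0.00792) and the mitochondrial share by -3.48 points (adjusted p = 0.00792). Most of this lay in replicate 3, where the upper pools had 3.62 to 4.73 M reads and the lower pools 1.501 to 2.23 M, and without replicate 3 none of the 5 measures passed. The part of these library differences in the gene results was not tested beyond the fits with depth as a covariate and without replicate 3 given below. Neurog3 correlated with log2 depth at r = 0.383 over the 18 pools, which share 3 cultures. That correlation has the same limit, because depth is the denominator of CPM.

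**Figure D2:**
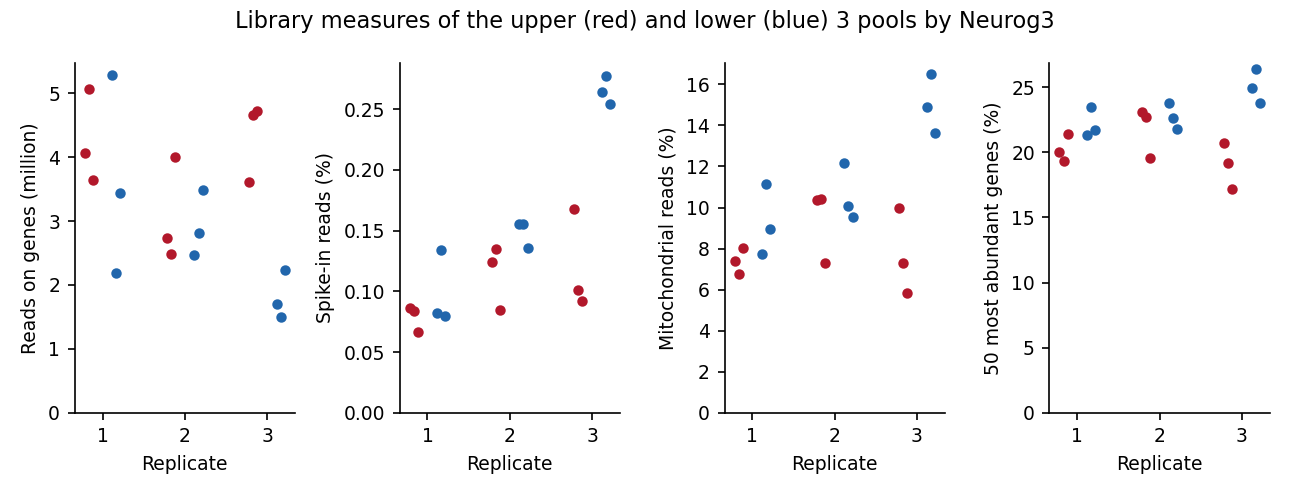
Gene reads (in units of 1000000), spike-in reads, mitochondrial reads and the share of the 50 most abundant genes (percent, vertical axes) for each WT pool by replicate, with the upper 3 pools by Neurog3 in red and the lower 3 in blue. In replicate 3 the 2 sets of pools are fully apart in all 4 panels, with upper pools deeper and lower in the other measures.

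Repeats 2 and 3 of replicates 2 and 3 were far closer to each other than other pairs, in every group. In WT pools their chi-square per gene was 2.35 in replicate 2 and 1.74 in replicate 3, against 5.41 to 27.6 for the other 43 pairs. In replicate 2 this pair falls on opposite sides of the boundary. The comparison was therefore also run with each such pair summed to 1 pool. In replicate 3, libraries of different groups with the same repeat number also deviated together, with a median correlation of 0.229 over 18 pairs, against 0.0297 and 0.0383 in replicates 1 and 2.

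Over all genes, a Neurog3 level about 2.05 times higher went with almost no gene that passed the test. Of 19624 genes tested with edgeR's quasi-likelihood test and the replicate as a block, 0 were higher (0%) and 1 was lower (0.0051%) in the upper pools at a Benjamini-Hochberg adjusted p of 0.05. Without adjustment, 1115 genes were higher (5.68%) and 875 lower (4.46%) at p under 0.05. DESeq2 called 37 higher and 77 lower at an adjusted p under 0.05. In all 3 replicates, 3451 genes (17.6%) were higher and 2039 (10.4%) lower in direction alone. For the 11660 genes of at least 5 CPM the median standard error was 0.162 on the log2 scale. Fold changes are relative to TMM scaling, and scaling to spike-in reads instead moved the median gene by 0.69, so that a negative value such as the -0.34 of Cbfa2t3 became 0.33. For comparison, WT Ngn3 against GFP only gave 1562 higher genes (6.55%) and 1247 lower genes (5.23%) of 23843, or 2256 and 2034 with the replicate number as a block. Of the genes higher with WT Ngn3 than with GFP only, 1549 were tested between upper and lower pools and 0 passed, with 124 higher (8.01%, against 5.68% of all genes) and 44 lower (2.84%, against 4.46%) without adjustment. Of the genes lower with WT Ngn3 than with GFP only, 1217 were tested, with 85 higher (6.98%) and 55 lower (4.52%) without adjustment and 1 lower, Ankrd1, after it. In 6S-A pools the same ordering gave a Neurog3 ratio of 1.70 and 0 genes in either direction of 19629 (0%; 2.57% higher and 2.53% lower without adjustment).

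The gene that passed was Ankrd1 (ENSMUSG00000024803, GRCm38 chr19:36111961-36120099, minus strand), an ankyrin repeat protein and a widely used target gene of the YAP coactivator. In replicate 1 the upper pools held 212, 213 and 214 CPM and the lower pools 231, 325 and 357 CPM. In replicate 2 the upper pools held 225, 297 and 422 CPM against 404, 420 and 625 CPM. In replicate 3 they held 251, 321 and 352 CPM against 502, 505 and 600 CPM. The upper and lower pools did not overlap in replicates 1 and 3, while 1 upper pool of replicate 2 exceeded 2 lower pools.

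The log2 fold change of Ankrd1 was -0.68 (SE 0.114, 95% interval -0.913 to -0.448, edgeR adjusted p = 0.0245), and it was negative in each replicate, at -0.49, -0.64 and -0.81. It was negative under 32 of 32 alternatives but stayed past the threshold in 10. Leaving out any 1 replicate lost the call (adjusted p = 0.0561 to 1.00) with a fold change of -0.75 to -0.59. Leaving out 1 pool lost it for 13 of 18 pools, with -0.70 to -0.62. It was also lost in the fit without the block (adjusted p = 0.481) and with the depth covariate (adjusted p = 0.864). Under spike-in scaling it was -0.0066 (adjusted p = 0.984). In 6S-A pools the log2 fold change was -0.02, and the difference between the proteins had an unadjusted p of 0.034 (edgeR interaction test, adjusted p = 0.807). GFP-only pools had a median of 659 CPM, and Ankrd1 was lower with WT Ngn3 than with GFP only by -1.01 on the log2 scale (edgeR adjusted p = 0.017).

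No gene of the early Ngn3 cascade passed the test between upper and lower pools under TMM scaling. Under spike-in scaling, where the median gene moved by 0.69, Insm1 (0.65), Atoh8 (0.99) and Hes6 (0.92) passed. Of its 12 genes, Neurod4 had no reads, and of the 11 tested 0 passed in either direction (against 0% and 0.0051% of all genes). Their log2 fold changes had a median of 0.02, beside 0.02 over all genes, and 6 of 11 were positive (54.5%, against 52.6% of all genes). With near-identical pairs summed, 3 of 11 were positive with a median of -0.19, with depth as a covariate 7 of 11 with a median of 0.21, and with the same-numbered GFP-only libraries as a block the median was -0.21. In all 3 replicates, 3 of them were higher (27.3%, against 17.6% of all genes) and 1 was lower (9.09%, against 10.4%). All 11 were higher with WT Ngn3 than with GFP only (edgeR adjusted p under 0.05), against 6.55% of all genes. The list was chosen with earlier results of these data known. Their median log2 fold change was 9.15, which depends on the prior count where GFP-only pools are at 0.

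Hes6, a Hes-family factor that acts with neurogenic factors, was the 1 cascade gene with an unadjusted p under 0.05. Its upper pools ranged from 490 to 746 CPM and its lower pools from 435 to 711 CPM, so that the groups overlapped, and GFP-only pools had a median of 69.1 CPM. The log2 fold change was 0.28 (SE 0.094, 95% interval 0.086 to 0.467, edgeR adjusted p = 0.291), at 0.22, 0.34 and 0.39 in the 3 replicates.

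Neurod1, a helix-loop-helix factor needed for endocrine maturation, ranged from 3.65 to 258 CPM over the 18 pools. In replicate 1 its upper pools held 19.8, 54.3 and 64.5 CPM and its lower pools 13.7, 64.8 and 65.9 CPM. In replicate 2 they held 3.65, 12.3 and 36.6 CPM against 4.02, 45.2 and 54.3 CPM. In replicate 3 they held 56.7, 189 and 258 CPM against 114, 124 and 134 CPM. The upper and lower pools overlapped in every replicate, and the fold change was -0.18 (95% interval -1.256 to 0.905).

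Insm1, a zinc finger factor of endocrine progenitors, had a log2 fold change of 0.02 (95% interval -0.434 to 0.481) and a range of 32.1 to 321 CPM. Rfx6, a winged-helix factor of the endocrine lineage, had -0.20 (-1.107 to 0.698). Pax4, a homeobox factor of beta and delta cell fate, was at 0 reads in 8 of the 18 pools, and its fitted value of 0.89 (-1.798 to 3.582) gives no direction. In replicate 3 its lower pools held 17.5, 22.7 and 25.2 CPM and its upper pools 0, 5.92 and 19.6 CPM, a within-replicate difference of -2.46, against positive differences in replicates 1 and 2. Cbfa2t3, a transcriptional corepressor, had -0.34 (-0.688 to 0.004). The remaining genes, Neurod2, Nkx2-2, Atoh8, Myt1 and St18, lay between -0.14 and 0.42.

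The interval of the slope bears on how large a dose response could be. Per doubling of Neurog3 CPM, the change in log2 level ranged from -0.15 to 0.76 over the 11 genes, with a median of 0.10, where a level proportional to Neurog3 would give 1. The 95% interval lay below 1 for 10 of 11 genes and included 0 for 10. Hes6 had an interval of 0.002 to 0.305, and Pax4 had -0.87 to 2.39. No slope passed the adjusted threshold (edgeR, lowest adjusted p = 0.584). The ordering variable is itself measured with error, and any effect of that error on the slopes was not tested.

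**Figure D3:**
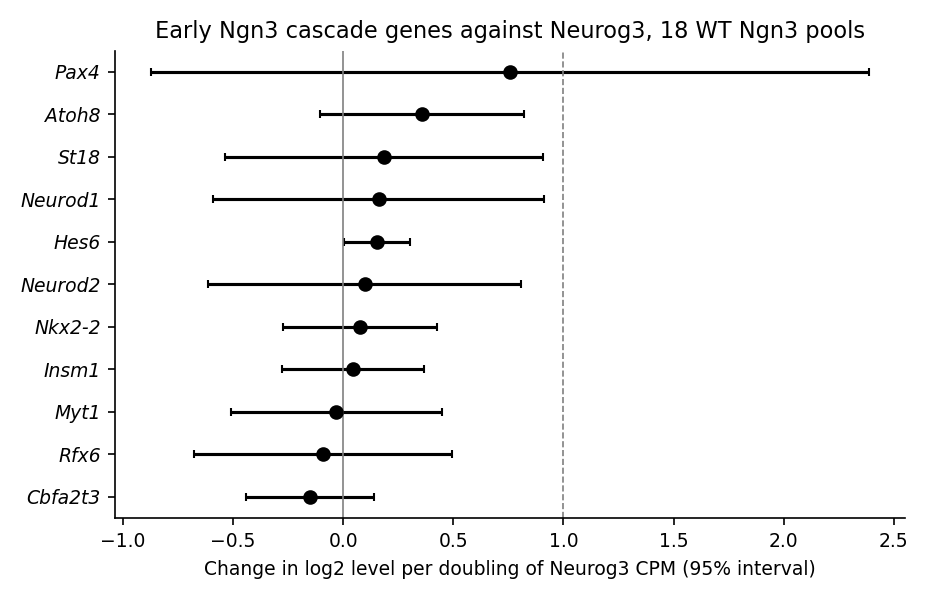
Change in log2 level per doubling of Neurog3 CPM, with 95% intervals, for the 11 early cascade genes tested in the 18 WT pools; the solid line marks 0 and the dashed line a proportional response at 1. The intervals of 10 genes end below 1, and that of Pax4 runs from -0.87 to 2.39.

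Neurog3 was highest in replicate 1, while 9 of the 11 cascade genes had their highest median in replicate 3. Neurod1 had medians of 59.4, 24.4 and 129 CPM in replicates 1, 2 and 3, and Insm1 had 68.3, 109 and 227 CPM. Rfx6, Nkx2-2 and Myt1 were likewise highest in replicate 3, at 106, 62.5 and 51.3 CPM. The other 2 genes were highest in replicate 1 as Neurog3 was, Hes6 with medians of 633, 493 and 563 CPM and Atoh8 with 13.6, 12.8 and 9.66 CPM. With 3 cultures this is a description.

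Within cultures, 9 of the 11 cascade genes had a higher median correlation with the other cascade genes than with Neurog3. After centring on the replicate, the 55 pairs of cascade genes had a median Pearson r of 0.377 (-0.424 to 0.845) over the 18 pools, and the 11 genes had a median r with Neurog3 of 0.0816 (-0.195 to 0.498). Neurod1 and Rfx6 had r = 0.845, Myt1 and St18 r = 0.831 and Insm1 and Nkx2-2 r = 0.818. Hes6 and Atoh8 were the exceptions, with r = 0.498 and 0.406 with Neurog3 and a median r of -0.0171 and -0.282 with the other cascade genes. Pools share culture, depth and the near-identical pairs, so these values are given as a description with no p.

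**Figure D4:**
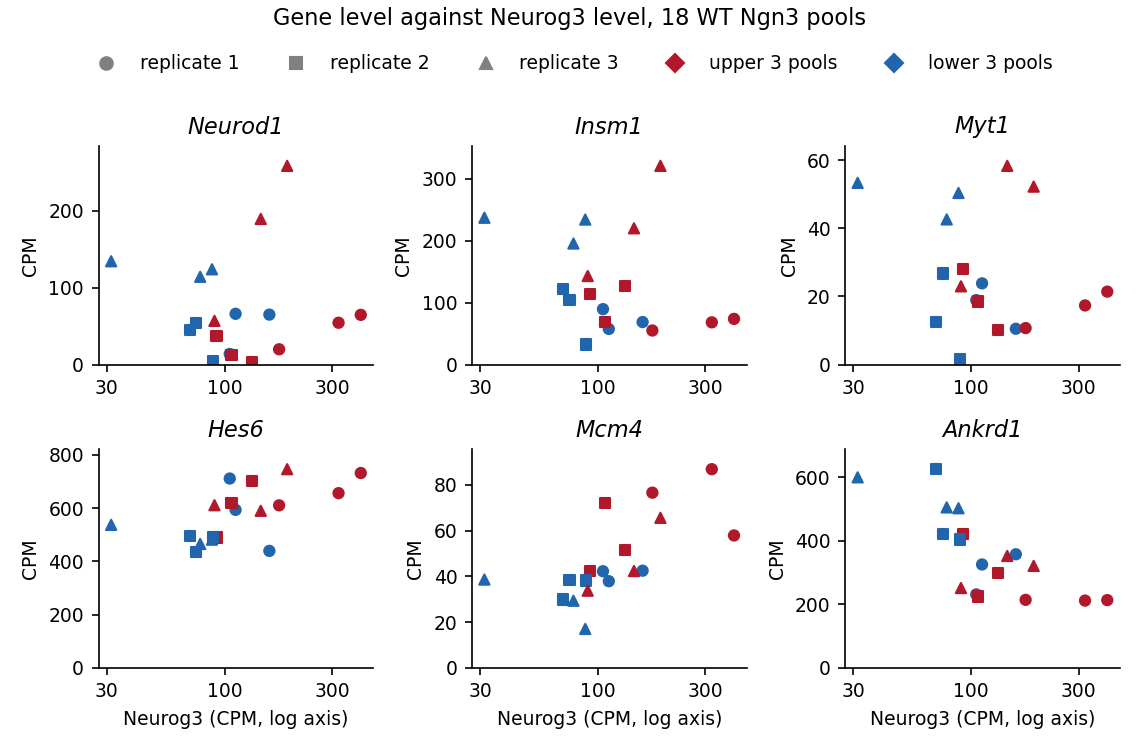
CPM of 6 genes (vertical axes) against Neurog3 CPM (log axis) in the 18 WT pools, with the symbol giving the replicate and red or blue the upper or lower 3 pools by Neurog3. For Neurod1, Insm1 and Myt1 most pools of replicate 3 lie above those of the other replicates, and the upper pools of Ankrd1 lie at 212 to 422 CPM against 231 to 625 CPM in the lower pools.

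Genes of DNA replication had positive fold changes between upper and lower pools, though none passed edgeR's adjusted test in the main fit with its detection filter. With no detection filter, Mcm4 (0.70), Mcm6 (0.59), Rrm1 (0.66) and Rrm2 (1.27) were among the genes that passed. All 17 genes of the S phase list were positive (against 52.6% of all genes), with a median of 0.71 beside 0.02 over all genes. Of these, 11 had an unadjusted p under 0.05 (64.7%, against 5.68% of all genes), and 0 passed after adjustment (edgeR, lowest adjusted p = 0.142). In all 3 replicates, 9 of the 17 were higher (52.9%, against 17.6% of all genes) and 0 lower (against 10.4%). The list's summed level was 381 to 926 CPM in the upper pools (median 673) and 348 to 539 CPM in the lower pools (median 401). GFP-only pools had 576 to 1409 CPM, with a median of 797.

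Mcm4, a subunit of the replicative helicase, held 57.9, 76.6 and 86.8 CPM in the upper pools of replicate 1 against 37.9, 42.2 and 42.5 CPM in the lower pools. In replicate 2 it held 42.3, 51.4 and 72.0 CPM against 29.9, 38.2 and 38.5 CPM, and in replicate 3 33.7, 42.3 and 65.5 CPM against 17.0, 29.3 and 38.6 CPM. The groups overlapped in replicate 3 alone. Its log2 fold change was 0.71 (SE 0.154), and DESeq2 called it (adjusted p = 0.00953).

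Rrm1, the large subunit of ribonucleotide reductase, had 0.66, the helicase subunits Mcm5, Mcm6 and Mcm2 had 0.89, 0.59 and 0.39, and Cdc6, a helicase loader, had 1.76. All 17 stayed positive with the near-identical pairs summed (12 at unadjusted p under 0.05, or 70.6% against 3.57% of all genes), without replicate 3 (12, or 70.6% against 2.43%) and with depth as a covariate (9, or 52.9% against 2.26%). With the same-numbered GFP-only libraries as a block, 16 of 17 were positive and the median fell to 0.36.

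The same genes took other values in the 6S-A and GFP-only libraries. In 6S-A pools 6 of 17 S phase genes were positive, with a median of -0.11. The difference between the proteins had an unadjusted p under 0.05 for 7 of the 17 genes, against 6.07% of all genes. None of the 17 passed after adjustment (edgeR, lowest adjusted p = 0.569). GFP-only libraries with the same replicate and repeat numbers, which hold almost no Neurog3, were also positive in 17 of 17, with a median of 0.27 and a range of 0.13 to 0.68. Against GFP only, 10 of 17 S phase genes were lower with WT Ngn3 (edgeR adjusted p under 0.05), against 5.23% of all genes. None was higher, against 6.55% of all genes.

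Mitotic genes varied more between replicates. Of 19 genes of the G2/M list, 18 were positive (94.7%, against 52.6% of all genes) with a median of 0.46, but none had an unadjusted p under 0.05 and the medians of the 3 replicates were 0.18, 0.92 and -0.45. GFP-only libraries with the same numbers were also positive in 18 of 19, with a median of 0.32, and the median with them as a block was 0.14. With depth as a covariate 19 of 19 were positive, with a median of 1.03 and 3 at unadjusted p under 0.05 (15.8%, against 2.26% of all genes). In 6S-A pools 0 of 19 were positive (against 50.7% of all genes) and 9 were lower without adjustment (47.4%, against 2.53%), with a median of -1.63, and the difference between proteins had an unadjusted p under 0.05 for 9 (47.4%, against 6.07% of all genes), with none passing after adjustment (edgeR, lowest adjusted p = 0.742).

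**Figure D5:**
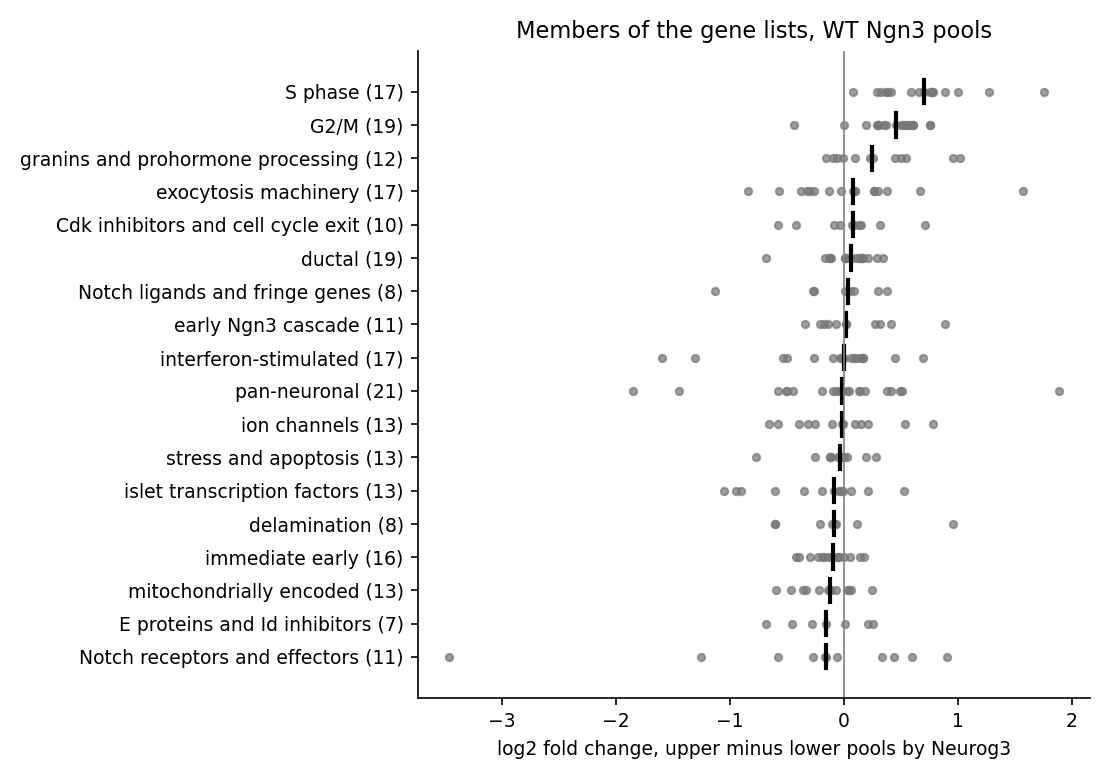
Log2 fold change between upper and lower pools by Neurog3 for each tested member (grey points) of the gene lists with at least 7 genes, with the median as a black bar and the number of genes in parentheses. All 17 S phase genes lie above 0, and the early cascade has a median of 0.02.

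Endocrine effector genes were counted by list, and none passed edgeR's adjusted test in WT pools in the main fit. With no detection filter, Sst was among the genes that passed, at -5.93 (edgeR adjusted p = 3.13e-15). Of 16 islet transcription factors 13 were tested, 3 were positive (23.1%, against 52.6% of all genes) and none had an unadjusted p under 0.05. Granins and prohormone processing genes, the makers of secretory granules, had a median of 0.25 over 12 genes, with 1 higher at unadjusted p under 0.05 (8.33%, against 5.68% of all genes). That median was 0.03 both with near-identical pairs summed and without replicate 3. Of 17 exocytosis genes 9 were positive, with a median of 0.08, and 1 was lower without adjustment (5.88%, against 4.46%), namely Snap25, a membrane fusion protein, at -0.84 (edgeR adjusted p = 0.217). In 6S-A pools 11 of 13 granin and processing genes, 16 of 17 exocytosis genes and 11 of 13 ion channel genes were positive (against 50.7% of all genes). Without adjustment 1, 4 and 1 were higher (7.69%, 23.5% and 7.69%, against 2.57%), and after it none in the main edgeR fit with its detection filter. In WT pools 5 of the 13 ion channel genes were positive. Of 14 peptide hormones only 3 passed the detection filter, all with a negative log2 fold change. Of these, Sst (-5.91) had an unadjusted p under 0.05 (33.3%, against 4.46% of all genes). With near-identical pairs summed, and also without replicate 3, 1 of 3 was positive and 0 had an unadjusted p under 0.05. Ghrl, which encodes ghrelin, ranged from 0.197 to 540 CPM, and Sst, which encodes somatostatin, held 82.1 and 107 CPM in repeats 2 and 3 of replicate 3, the near-identical pair. Among the genes the study lists at 2 days, chosen on these libraries and so not independent, 199 were tested and 9 were higher (4.52%, against 5.68% of all genes) and 2 lower (1.01%, against 4.46%) without adjustment.

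Ductal genes were present in every pool, with a summed level of 12438 to 17768 CPM in upper and 11712 to 16228 CPM in lower pools. Of 19 tested 14 were positive (73.7%, against 52.6% of all genes), with medians of -0.10, -0.05 and 0.42 in the 3 replicates. Without replicate 3, 9 of 19 were positive, and with depth as a covariate 7. Tspan8, a tetraspanin of epithelial cells, had 0.34 (edgeR adjusted p = 0.217), and DESeq2 called it (adjusted p = 0.0324). Markers of other cells were low, with summed levels of at most 9.60 CPM for acinar, 11.4 CPM for fibroblast and stellate, 19.3 CPM for immune and 30.3 CPM for endothelial genes in any WT pool.

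Immediate early genes, which respond quickly to stimulation and dissociation, had 4 of 16 lower without adjustment (25%, against 4.46% of all genes), namely Klf6 (-0.42), Klf4 (-0.39), Atf3 (-0.29) and Dusp1 (-0.22), of which DESeq2 called Klf6. With near-identical pairs summed the count was 3 (18.8%, against 3.83% of all genes). Without replicate 3 it was 2 (12.5%, against 1.95%), and with depth as a covariate 2 (12.5%, against 2.11%). Mitochondrially encoded genes had 3 of 13 lower (23.1%), mt-Nd6 (-0.60, edgeR adjusted p = 0.078), mt-Nd2 and mt-Nd4, all 3 called by DESeq2. With depth as a covariate 1 of 13 was lower (7.69%, against 2.11% of all genes). Their mean summed level was 30879 CPM in upper and 32060 CPM in lower pools, and 4 of 13 were positive. The mitochondrial share also counts genes outside this list, such as mt-Rnr1 (-0.82) and mt-Rnr2 (-0.70) in the edgeR fit with no detection filter. Reads of mt-Nd6 may include those of mt-Nd5, which overlaps it on the other strand.

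The 10 genes whose centred level was most like that of Neurog3 among those of at least 5 CPM included Bysl, Slc48a1, Gm10179, Ap1b1, Kctd13, Col7a1, Sdf2l1, Gorasp2 and Ranbp1, with Pearson r from 0.856 down to 0.785 over the 18 pools. None is a member of the early cascade. In 6S-A pools their r with Neurog3 ran from 0.0182 to 0.778, highest for Ap1b1, a clathrin adaptor subunit, at 0.778 and for Slc48a1, a heme transporter, at 0.601. They were picked as the highest of many genes in these pools, so the WT values carry no test.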

How the data were processed

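RNA from pools of sorted cells was amplified by Smart-seq2 and made into Nextera XT libraries. The deposited table holds raw counts of reads per gene, which the authors made with GSNAP and HTSeq (0.5.3p3) on mm10 with Ensembl genes, without normalization; the strand setting is not given in the sources used here. Of the table's reads, 43.7 to 56.2% per WT pool stood on lines naming no gene and were left out. CPM used the 46078 mouse genes, and 92 spike-ins were kept apart. Coordinates are GENCODE M21 on GRCm38.

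Pools were ranked by Neurog3 CPM within replicate. Genes detected in at least 5 of 18 pools were tested with edgeR 4.0.16 in R 4.3.3 (TMM, robust quasi-likelihood, replicate block, Benjamini-Hochberg 0.05). The fit was tested on simulated data. WT Ngn3 was compared with GFP only on summed repeats, with no replicate block in the main fit, from which the gene counts and lists were taken. Same-numbered replicates correlated at 0.109 to 0.518 over 9 pairs, against -0.477 to 0.0013 over 18 pairs of different numbers. The replicate numbers may therefore pair the samples, which the sample titles do not state. Alternatives covered scaling, filters, DESeq2 1.42.0, other splits, summing, depth and leaving out pools; a block of same-numbered GFP-only libraries was chosen after seeing the data. Named genes are Neurog3, list members, up to 12 called genes each way and the 10 most like Neurog3; some results that this rule gave are not reported here. The members and lists were chosen with earlier results of these data known.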

Additional observations from a re-analysis of the deposited data

Results flagged for a closer look

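Of 62 groups of 9 pools checked, 5 had a pool far from the others by Dixon's test, where chance gives about 1 in 20 groups of independent values. Each group of 9 holds 3 cultures, whose levels differ, and this check takes no account of the culture. Atoh8 reached 27.4 CPM in the upper pool of repeat 5 of replicate 1, with the next pool at 16.004 CPM. In the lower pools, Rfx6 reached 204 CPM in repeat 4 of replicate 3 (next 90.9 CPM), and Gal, which encodes galanin, reached 333 CPM in the same pool (next 126 CPM), which was also the WT pool with the lowest Neurog3. Rrm1 reached 97.0 CPM in the lower pool of repeat 4 of replicate 1 (next 59.1 CPM). Ghrl reached 540 CPM in the lower pool of repeat 3 of replicate 1 (next 198 CPM).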

How the results depend on the processing

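For the WT pools, against 0 genes higher and 1 lower as reported, the fit with no replicate block gave 0 and 0, as did edgeR's low-count filter, the top 2 against the bottom 2 pools and pools summed within replicate. DESeq2 gave 37 and 77, no detection filter 97 and 81, Neurog3 as a continuous covariate 1 and 1, and the block of same-numbered GFP-only libraries 19 and 8. Spike-in scaling gave 7485 and 35 with the median gene shifted by 0.69. Leaving out a replicate or a pool gave 0 higher and 0 to 3 lower. Without replicate 1, or pool 1 or 4 of it, 3 were lower. For 6S-A pools, no filter gave 34 and 55, the outermost pools 0 and 1, summing 1 and 2, and leave-one-out 0 to 1 higher. WT Ngn3 against GFP only gave 2256 higher and 2034 lower with the replicate block, and leaving out a replicate gave 830 to 1287 higher and 377 to 980 lower, the lowest without replicate 2. With near-identical pairs summed, the depth difference was 1.12 M reads and that of detected genes 682, neither passing. Leaving out a replicate gave 0.388 to 1.57 M reads, 332 to 996 genes, -0.0896 to -0.0271 points of spike-in, -4.61 to -1.56 of mitochondrial and -3.98 to -1.44 of top-gene share. Spike-in scaling brought Insm1, Atoh8 and Hes6 past the threshold at 0.65, 0.99 and 0.92. The cause of each change was not tested. The shallowest pool held 1.501 M gene reads, which limits genes of few reads.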
